A study of Mus musculus with 37 samples.

Results

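Metallothioneins and the enzymes that remove oxidants were followed in RNA of the mouse cerebellum with and without the histone methyltransferase gene Mll4. The set holds 9 genes, taken by symbol: the metallothioneins Mt1, Mt2 and Mt3, the stress-inducible enzymes Hmox1 and Nqo1, the superoxide dismutases Sod1 and Sod2, the glutathione peroxidase Gpx1 and the catalase gene Cat. All 9 were found among the 29955 gene symbols of the deposited table. The set was chosen by symbol and partly selected on the measured FPKM of Mt1, which was lower at 4 months than at 1 month, so levels at 4 months are given as a description with no test. The series asks how MLL4, which methylates lysine 4 of histone H3, supports tumour-suppressive genes.

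RNA libraries came from C57BL/6 mice carrying the Mll4 BSKO deletion, called KO here, and from Mll4f/f mice, called WT. There were 3 KO and 3 WT libraries at 1 month of age and 1 KO and 1 WT library at 4 months. The WT mice carry floxed alleles, and the driver of the deletion is not given in the sources used here. Whether the replicates were separate animals is not stated, and the p-values therefore reflect library-to-library spread that may be technical. The other 29 of the 37 samples are chromatin immunoprecipitations and inputs and were not analysed here.

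Metallothioneins are small cysteine-rich proteins that bind zinc and copper and scavenge oxidants. Mt1 and Mt2 are expressed mainly by glia and blood vessels in brain and are induced by zinc, through the factor MTF1, and by glucocorticoids. Mt3 is the form enriched in brain. Superoxide dismutases turn superoxide into hydrogen peroxide, which catalase and glutathione peroxidase then remove. The factor NRF2 induces Hmox1, Nqo1 and many genes of glutathione metabolism under oxidative stress.

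Some libraries stood apart from their labels. The targeted gene, listed as Mll2 (a former symbol shared by Kmt2b and Kmt2d, read here as Kmt2d), was at 12.7, 13.6 and 23.5 FPKM (fragment numbers relative to transcript length and to all mapped fragments) in KO replicates 1, 2 and 3, against 18.2, 19.9 and 22.3 in WT at 1 month. The third value lies above all WT values, so that library is called the library labelled KO replicate 3. At 4 months Mll2 was at 16.6 FPKM in the library labelled KO and at 46.6 in WT. Wbp7, read as Kmt2b, was at 7.98, 8.28 and 13.7 FPKM in KO and at 14.4, 14.8 and 15.1 in WT at 1 month, so it was below all WT values in the library labelled KO replicate 3 too. Replicates 1 and 2 of each genotype lay closest together, with a median absolute log2 difference of 0.077 in KO and 0.077 in WT over 7315 genes. The library labelled KO replicate 3 lay 0.25 from both other KO libraries and 0.15 to 0.20 from the WT libraries, and WT replicate 3 lay 0.18 to 0.19 from the other WT libraries. Fits without a replicate 3 library therefore rest on a pair with little spread. Granule neuron markers, summed over 12 genes, were at 331, 325 and 1121 FPKM in the KO libraries and between 1659 and 1713 in WT. Brainstem markers, 13 genes, were at 166, 170 and 99.0 FPKM in KO and at 16.2, 17.2 and 56.2 in WT. The library labelled KO at 4 months was low in many markers of cerebellar neurons but not in all. Its granule neuron markers summed to 73.3 FPKM, against 1027 in the WT library of 4 months, and its Purkinje cell markers, 11 genes, to 497, against 1596 in WT. The granule neuron receptor gene Gabra6 was at 0.118 FPKM there and at 134 in the WT library of 4 months. The Purkinje cell gene Pcp2 was at 0.544 FPKM in the library labelled KO and at 132 in WT. Listed genes that other neurons also express were less far apart, with Gad1 at 75.5 FPKM in the library labelled KO and 79.4 in WT, Pcp4 at 192 in the library labelled KO and 222 in WT, and Itpr1 at 125 in the library labelled KO and 356 in WT. The 3 forebrain genes Tbr1, Neurod6 and Emx1, chosen after values were seen, summed to 72.8 FPKM in the library labelled KO at 4 months and to between 1.7 and 2.59 in the other 7 libraries. In tissue RNA, fewer cells of a type and less RNA per cell cannot be told apart.

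The 3 metallothionein genes lie next to one another on chromosome 8, in the order Mt3, Mt2, Mt1 after Mt4 with no other protein-coding gene between them, in the RefSeq annotation of GRCm38.p6. That build differs from mm9, which the submitters used, so it served here for names, neighbours and promoter sequences only. Windows of 250 bases before to 50 bases after the RefSeq start are shown because Mt1 and Mt2 are the textbook targets of MTF1, whose metal response element has the core TGCACNC or TGCGCNC. Both patterns were searched on both strands, matches are in capitals, and no match overlaps another. The windows are chr8:94178839-94179138, chr8:94172368-94172667 and chr8:94152357-94152656 for Mt1, Mt2 and Mt3, all on the plus strand.
Mt1: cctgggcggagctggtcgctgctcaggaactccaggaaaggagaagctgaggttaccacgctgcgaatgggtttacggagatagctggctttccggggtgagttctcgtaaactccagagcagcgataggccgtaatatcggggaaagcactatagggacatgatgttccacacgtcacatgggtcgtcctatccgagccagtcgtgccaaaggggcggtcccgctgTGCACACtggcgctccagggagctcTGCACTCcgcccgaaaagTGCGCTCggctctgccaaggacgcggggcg
Mt2: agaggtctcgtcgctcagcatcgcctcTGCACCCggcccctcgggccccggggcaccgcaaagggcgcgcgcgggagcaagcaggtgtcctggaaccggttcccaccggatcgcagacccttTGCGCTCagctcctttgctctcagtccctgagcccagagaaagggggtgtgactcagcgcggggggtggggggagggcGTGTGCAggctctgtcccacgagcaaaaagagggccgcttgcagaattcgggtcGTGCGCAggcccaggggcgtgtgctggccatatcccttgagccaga
Mt3: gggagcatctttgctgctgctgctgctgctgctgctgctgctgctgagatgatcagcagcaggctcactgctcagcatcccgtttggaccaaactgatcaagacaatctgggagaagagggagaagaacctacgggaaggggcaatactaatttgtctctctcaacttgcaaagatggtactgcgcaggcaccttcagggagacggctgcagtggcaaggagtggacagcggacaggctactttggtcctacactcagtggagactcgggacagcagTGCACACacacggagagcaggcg
The Mt1 window held 3 matches, the Mt2 window 4 and the Mt3 window 1. Relative to the RefSeq start, they began at -23, 2 and 20 for Mt1 and at -223, -128, -50 and 4 for Mt2. The Mt3 match began at 27. These positions depend on the RefSeq start used, and other starts were not examined. Of 32851 promoter windows of the same length, 25.7% held at least 1 match, 1.97% at least 3 and 0.517% at least 4. The antioxidant response core TGACNNNGC, searched the same way, matched once in the Mt2 window and once in the Sod1 window and in 12.4% of all windows. Windows were found for 8 of the 9 genes, all but Hmox1. Sequence outside the windows was not searched, so the lack of a match in a gene holds for its window only. A match is a pattern of letters in a window and was not tested for binding.

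Mt1 was the most abundant of the 9 genes at 1 month on the FPKM scale, which is per length. Its mean level was 525 ± 117 FPKM over the KO libraries and 478 ± 62.2 over the WT libraries (SD, n = 3 each). Mt3 followed at 189 ± 17.4 FPKM in KO and 159 ± 41 in WT, and Mt2 at 119 ± 34.4 in KO and 143 ± 25.5 in WT. In KO the ranges of Mt3 and Mt2 were apart, and in WT they overlapped. Sod1, Sod2 and Gpx1 came next, with KO means of 51.6, 50.2 and 47.1 FPKM and overlapping ranges between neighbours. In WT their means were 35.9, 45.4 and 34.7 FPKM, and the range of Sod2 lay apart from that of Sod1. Cat lay below these, and the inducible genes Hmox1 and Nqo1 were lowest, with overlapping ranges in KO.

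**Figure D1:**
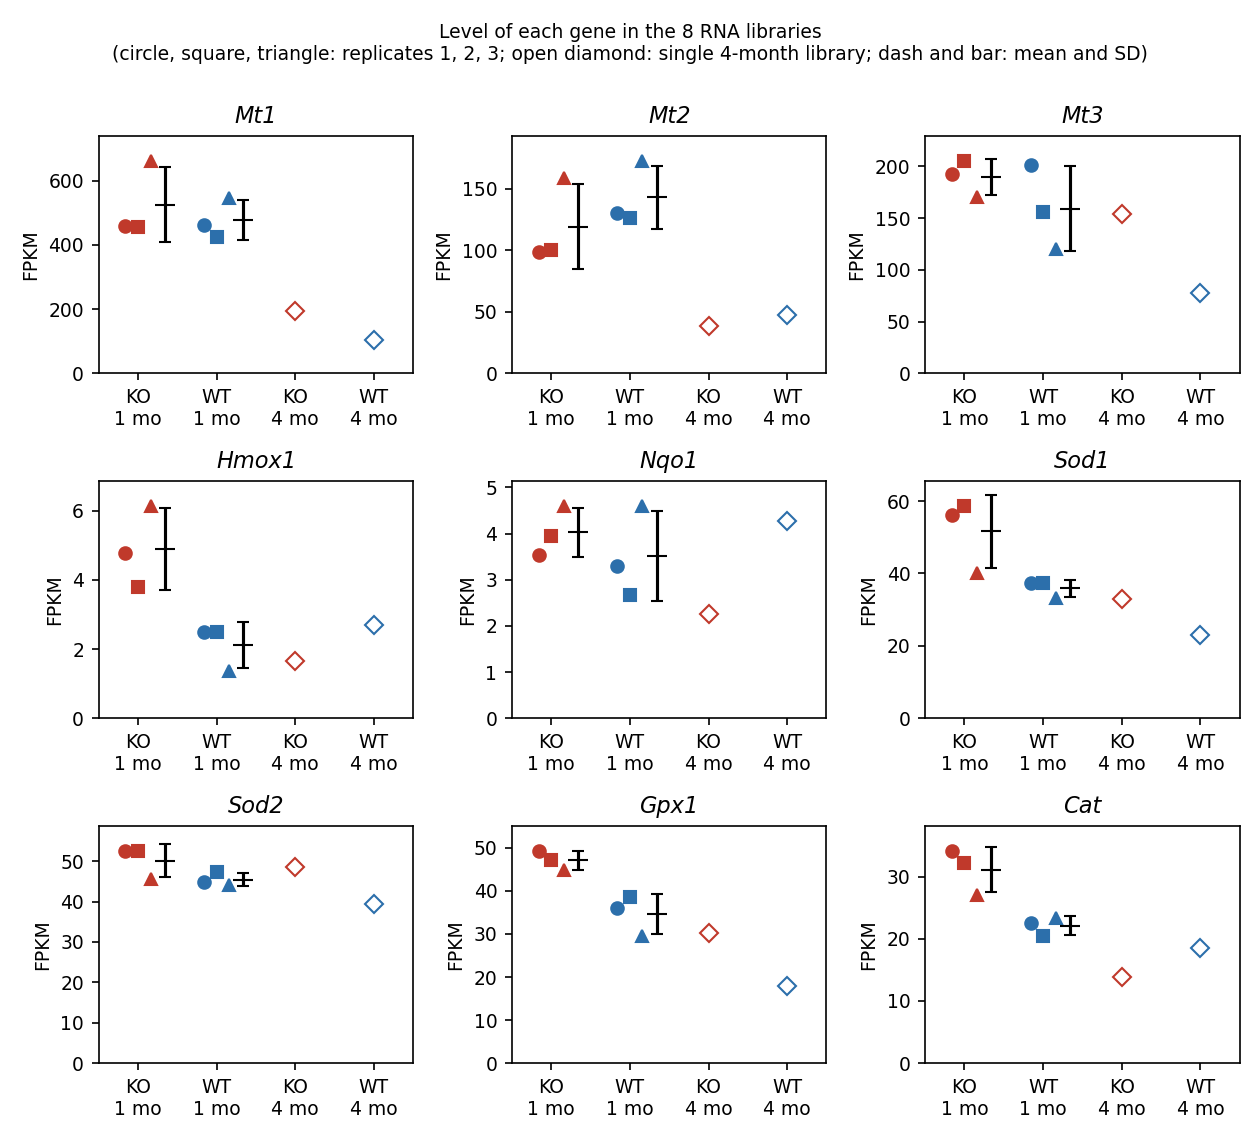
FPKM of the 9 genes in each library, with KO in red and WT in blue. Points are libraries and the dash with its bar is the mean and SD of 3 libraries. Hmox1, Sod1, Gpx1 and Cat have all 3 KO libraries of 1 month above all 3 WT libraries, and Mt1 and Mt2 are lower in both 4-month libraries than in every library of 1 month.

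The comparison of KO with WT at 1 month asked which of these genes differ between the KO and WT libraries. Those libraries also differ in granule neuron and brainstem marker sums, as given above. The parts of MLL4 loss and of tissue content in the values were not tested. In the fit of all 6 libraries, 0 of the 9 genes passed an adjusted p of 0.05, where 4 of 14847 genes did (0.0269%, and 0.0135% with higher values in KO; limma with Benjamini-Hochberg adjustment). An unadjusted p under 0.05 was reached by 4 of the 9 genes, Hmox1, Sod1, Gpx1 and Cat, all with higher values in KO, where 31.2% of all genes tested reached it in either direction and 14% with higher values in KO. In the same 4 genes all KO libraries were above all WT libraries, where 15.2% of all genes tested had that order, and in 0 genes were all KO libraries below all WT libraries, where 20.5% of all genes did. The median log2 fold change was 0.28 over the 9 genes and -0.045 over all genes. Without the library labelled KO replicate 3, whose targeted gene was not lower, these 4 genes passed an adjusted p of 0.05, where 34.1% of all genes passed, and 14.2% passed with higher values in KO. In that fit 27.8% of all genes had both KO libraries above all WT libraries. With limma's array weights, which let noisier libraries count for less, these 4 and Mt2 passed, where 54.5% of all genes did.

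Mt1 was at 459, 455 and 660 FPKM in KO and at 463, 425 and 546 in WT. The groups overlapped, and the highest value in each genotype was that of replicate 3. Its log2 fold change was 0.12 (95% interval -0.32 to 0.56; adjusted p = 0.679, limma). It was -0.055 without the library labelled KO replicate 3 and -0.067 under quantile normalization, so no direction is given.

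Mt2 was at 98.7, 100 and 159 FPKM in KO and at 130, 127 and 173 in WT. Replicate 3 was again the highest in each genotype, and KO replicates 1 and 2 lay below all WT libraries. KO over WT gave a log2 fold change of -0.28 (95% interval -0.82 to 0.25; adjusted p = 0.414, limma), and -0.51 without the library labelled KO replicate 3 (adjusted p = 0.058, limma). The value shrank to -0.14 without WT replicate 3, -0.16 without KO replicate 1 and -0.18 without KO replicate 2 (adjusted p = 0.71, 0.747 and 0.73, limma). Without replicate 3 of both genotypes, an alternative chosen after seeing the data, it was -0.36 and passed (adjusted p = 0.0138, limma), where 47.5% of all genes passed.

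Red blood cell genes had the same replicate 3 pattern. Their list held 5 of 7 genes in the table, none at 0 throughout, and summed to 280, 262 and 1181 FPKM in KO and to 134, 127 and 603 in WT. Alas2, the first enzyme of haem synthesis in red cells, was at 7.79, 7.91 and 52.9 FPKM in KO and at 3.88, 3.44 and 24.1 in WT. The share of all genes with that pattern is not given, and the part of red blood cells in the Mt1 and Mt2 values was not tested. Summed markers of astrocytes and Bergmann glia, 13 genes and none at 0 throughout, lay between 2068 and 2237 FPKM in KO and between 2025 and 2067 in WT at 1 month. Aldoc was the largest single gene in these sums, at 887, 895 and 873 FPKM in KO and at 887, 850 and 810 in WT. Within this list 2 genes had higher and 3 lower values in KO with no overlap. Gfap, the astrocyte filament gene, was at 153, 154 and 301 FPKM in KO and at 80.6, 83.2 and 87.4 in WT. Slc1a3, a glutamate transporter, was at 79.1, 74.4 and 168 FPKM in KO and at 245, 231 and 275 in WT. Endothelial and pericyte markers, 11 genes and none at 0 throughout, lay between 147 and 170 FPKM in KO and between 142 and 143 in WT.

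Mt3 was at 193, 205 and 171 FPKM in KO and at 202, 156 and 120 in WT. The groups overlapped through WT replicate 1, and replicate 3 was the lowest of each genotype, opposite to Mt1 and Mt2. For Mt3 the log2 fold change was 0.28 (95% interval -0.20 to 0.75; adjusted p = 0.368, limma). It was 0.091 without WT replicate 3 and 0.46 without WT replicate 1.

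The ratio of Mt1 to Mt2, which needs no scaling between libraries, was picked for description after its values were seen. It was 4.65, 4.53 and 4.15 in KO and 3.55, 3.35 and 3.17 in WT at 1 month, so every KO library was above every WT library, including the library labelled KO replicate 3. It averaged 4.45 ± 0.262 over the KO libraries and 3.36 ± 0.193 over the WT libraries (SD, n = 3 each), a log2 difference of 0.41. A two-sided exact permutation test gave p = 0.1, the smallest p possible with 3 libraries each. Because the ratio was picked on these values, nothing is read from that p. At 4 months the ratio was 5.12 in the library labelled KO and 2.22 in the WT library. Mt1 and Mt2 are short paralogs, so reads could be shared between them, and how such reads were assigned is not given in the sources used here.

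**Figure D2:**
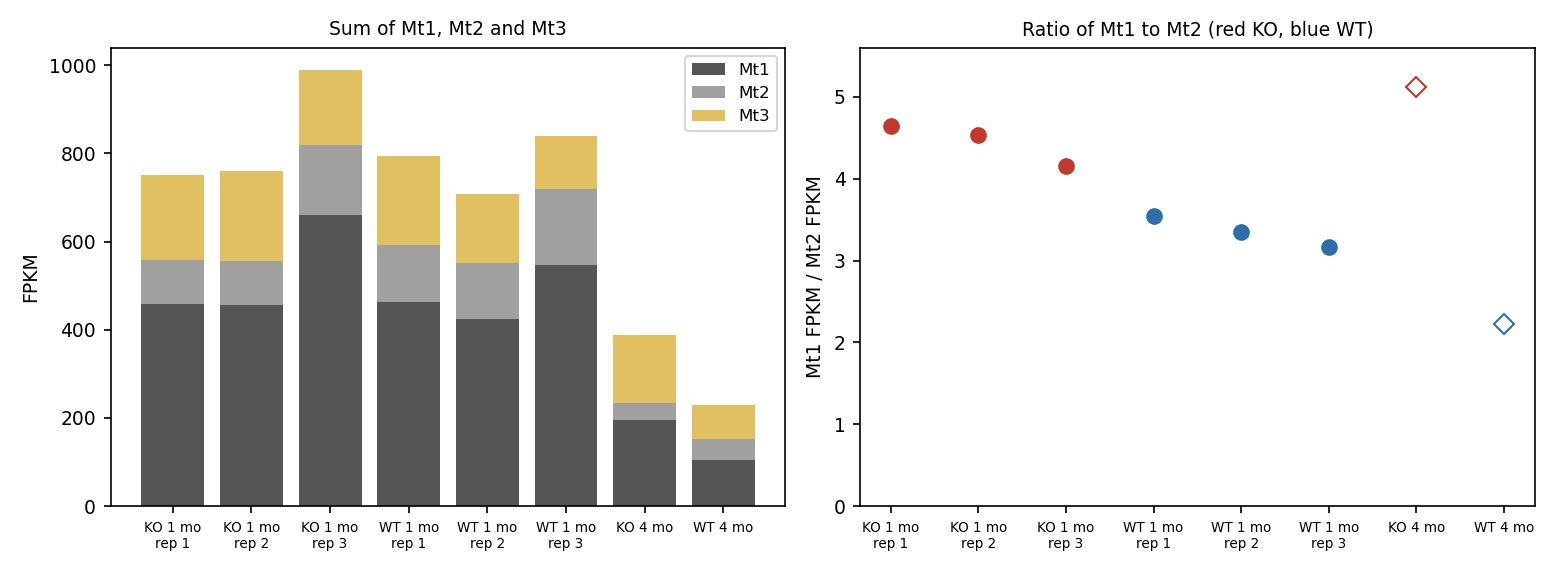
Left, stacked FPKM of Mt1, Mt2 and Mt3 in each library. Right, the ratio of Mt1 to Mt2 by library, with KO in red, WT in blue and open diamonds for 4 months. The 3 KO libraries of 1 month lie between 4.15 and 4.65 and the 3 WT libraries between 3.17 and 3.55.

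Hmox1, which degrades haem to biliverdin, iron and carbon monoxide, had the largest log2 fold change of the 9 genes in the fit of 6 libraries. It was at 4.76, 3.79 and 6.13 FPKM in KO and at 2.49, 2.50 and 1.36 in WT. Every KO library was above every WT library, with the library labelled KO replicate 3 the highest and WT replicate 3 the lowest. Its mean was 4.89 ± 1.18 FPKM in KO against 2.12 ± 0.653 in WT (mean ± SD, n = 3 each), a ratio of 2.31. The log2 fold change was 0.92 (95% interval 0.41 to 1.43; adjusted p = 0.0735, limma), and 0.78 without the library labelled KO replicate 3 (adjusted p = 0.0398, limma). Markers of microglia and macrophages, cells that use Hmox1 to break down haem, were higher in the same libraries. Their 12 genes, none at 0 throughout, summed to 195, 188 and 222 FPKM in KO and to 82.1, 76.9 and 59.1 in WT, and all 12 had no overlap and higher values in KO. Meningeal and fibroblast markers, 9 genes and none at 0 throughout, summed to 106, 108 and 113 FPKM in KO and to 70.2, 72.2 and 62.3 in WT. The part of these cells in the Hmox1 values was not tested.

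Nqo1, a quinone reductase, was at 3.54, 3.96 and 4.59 FPKM in KO and at 3.29, 2.67 and 4.59 in WT. The groups overlapped through WT replicate 3, with a log2 fold change of 0.17 (95% interval -0.25 to 0.60; adjusted p = 0.532, limma). The value was 0.092 in the fit that omits the library labelled KO replicate 3, 0.033 when WT replicate 2 was omitted and 0.34 when WT replicate 3 was omitted.

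Sod1, the cytosolic copper and zinc enzyme, was at 56.0, 58.6 and 40.2 FPKM in KO and at 37.3, 37.3 and 33.1 in WT. All KO libraries were above all WT libraries, and the library labelled KO replicate 3 lay nearest to WT. Its mean was 51.6 ± 9.96 FPKM in KO against 35.9 ± 2.43 in WT (mean ± SD, n = 3 each). The log2 fold change was 0.50 (95% interval 0.10 to 0.89; adjusted p = 0.109, limma), and 0.66 without the library labelled KO replicate 3 (adjusted p = 0.00773, limma). Sod2, the manganese enzyme of mitochondria, was at 52.5, 52.5 and 45.5 FPKM in KO and at 44.9, 47.2 and 44.1 in WT. The groups overlapped, and the log2 fold change was 0.14 (95% interval -0.12 to 0.39; adjusted p = 0.4, limma).

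Gpx1, a selenium enzyme that reduces hydrogen peroxide with glutathione, was at 49.3, 47.2 and 44.9 FPKM in KO and at 35.9, 38.5 and 29.6 in WT. The groups did not overlap, and the KO libraries were closer together than the WT libraries. For Gpx1 the log2 fold change was 0.44 (95% interval 0.13 to 0.75; adjusted p = 0.0932, limma), and 0.47 without the library labelled KO replicate 3 (adjusted p = 0.0456, limma).

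Cat, the peroxisomal enzyme that splits hydrogen peroxide, was at 34.1, 32.2 and 27.1 FPKM in KO and at 22.5, 20.4 and 23.4 in WT. The groups did not overlap, and the library labelled KO replicate 3 was the lowest of the KO libraries. For Cat the log2 fold change was 0.47 (95% interval 0.17 to 0.77; adjusted p = 0.0822, limma), and 0.56 without that library (adjusted p = 0.012, limma). Oligodendrocyte markers, 10 genes and none at 0 throughout, summed to 7195, 6740 and 4247 FPKM in KO and to 3245, 3154 and 6222 in WT. They were high in WT replicate 3, where Gpx1, Sod1 and Hmox1 were at their lowest among the WT libraries and Cat at its highest, and their part in these values was not tested.

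**Figure D3:**
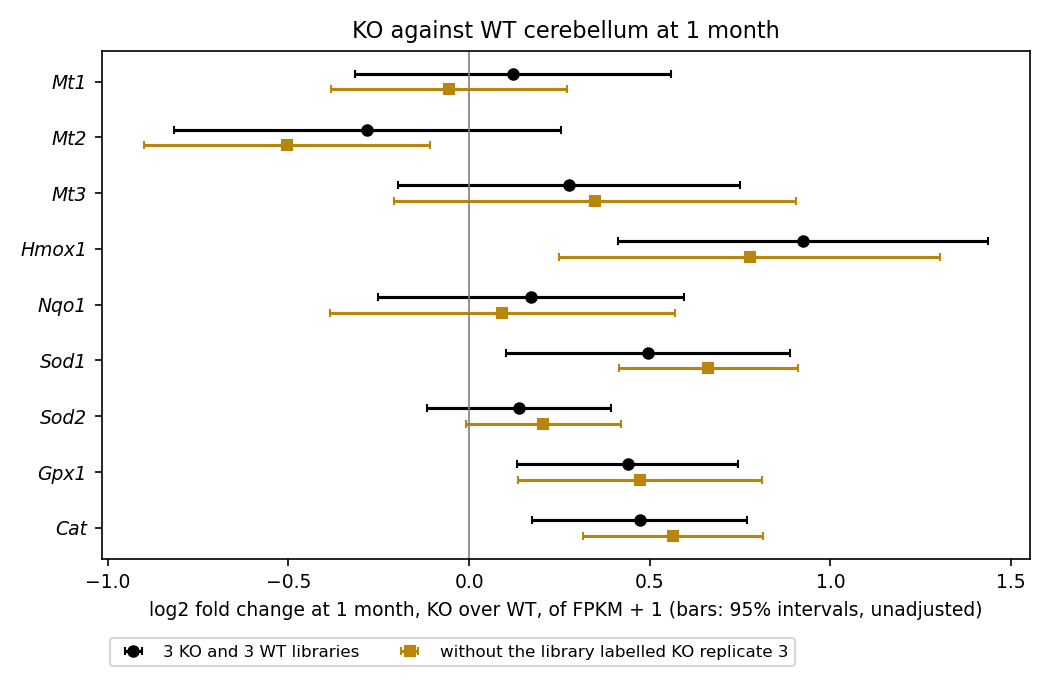
Log2 fold change of each gene at 1 month, KO over WT, with 95% intervals that are not adjusted for the number of genes. Black is the fit of 6 libraries and gold the fit without the library labelled KO replicate 3. The intervals of Hmox1, Sod1, Gpx1 and Cat lie above 0 in both fits, and those of Mt1, Mt3, Nqo1 and Sod2 include 0 in both. The interval of Mt2 includes 0 with 6 libraries and lies below 0 without the library labelled KO replicate 3.

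The neighbouring pathways were described from 8 lists chosen for textbook roles, with the 9 genes themselves left out of the counts. In every list 0 genes passed an adjusted p of 0.05 at 1 month in the fit of 6 libraries (limma), where 0.0269% of all genes did. Genes with no overlap between the groups are counted beside the background of 15.2% with higher and 20.5% with lower values in KO.

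Of 21 NRF2 pathway genes tested, 8 had all KO libraries above all WT libraries and 0 had the opposite order, and the median log2 fold change was 0.15. Nfe2l2, which encodes NRF2 itself, was at 11.9, 11.3 and 12.3 FPKM in KO and at 10.1, 9.01 and 7.62 in WT (log2 fold change 0.38, adjusted p = 0.109, limma). Its partner Mafk averaged 4.77 ± 0.686 FPKM in KO and 2.76 ± 0.671 in WT, Srxn1, which repairs peroxiredoxins, 41.8 ± 5.15 in KO and 32.4 ± 2.45 in WT, and Tkt of the pentose phosphate pathway 63.4 ± 16.1 in KO and 37.8 ± 2.68 in WT (mean ± SD, n = 3 each). Without the library labelled KO replicate 3, 4 of the 21 passed the adjusted threshold with higher values in KO and 0 with lower (limma), where 14.2% of all genes passed with higher values.

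Of 17 glutathione genes tested, 7 had all KO libraries above all WT libraries and 1 the opposite, with a median log2 fold change of 0.29. The glutathione transferase Gstm7 averaged 16.0 ± 2.6 FPKM in KO and 6.94 ± 2.41 in WT, Gstp1 29.4 ± 4.01 in KO and 17.1 ± 5.06 in WT, Gstm5 94.3 ± 23.5 in KO and 57.4 ± 6.6 in WT, and the microsomal enzyme Mgst1 15.7 ± 5.55 in KO and 7.84 ± 1.48 in WT (mean ± SD, n = 3 each). Their adjusted p-values lay between 0.0707 and 0.105 (limma). The list's median was 0.11 when WT replicate 3 was left out.

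Of 21 genes of superoxide and peroxide removal, 5 had higher and 1 lower values in KO with no overlap, and the median log2 fold change was 0.092. Gpx3, the secreted glutathione peroxidase, was at 10.9, 9.75 and 5.44 FPKM in KO and at 2.20, 2.13 and 2.92 in WT (log2 fold change 1.47, adjusted p = 0.064, limma). The peroxiredoxin Prdx6 was at 72.7, 71.6 and 72.2 FPKM in KO and at 56.4, 58.5 and 38.4 in WT. The glutaredoxin Glrx averaged 15.6 ± 4.17 FPKM in KO and 8.63 ± 0.756 in WT (mean ± SD, n = 3 each). Ccs, the copper chaperone of SOD1, had no overlap and lower values in KO, at 8.69, 9.10 and 7.75 FPKM in KO and 11.1, 9.71 and 12.4 in WT (log2 fold change -0.34, adjusted p = 0.13, limma). This list's median was 0.23 when the library labelled KO replicate 3 was left out.

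Of 21 metal handling genes tested, 3 had higher and 4 lower values in KO with no overlap, shares near those of all genes, and the median log2 fold change was 0.036. Mtf1, the metal-sensing factor of the Mt1 and Mt2 promoters, was at 7.27, 7.52 and 6.57 FPKM in KO and at 10.1, 10.9 and 9.98 in WT, with every KO library below every WT library (log2 fold change -0.48, SE 0.10, adjusted p = 0.0659, limma). The zinc importer Slc39a12 averaged 39.3 ± 5.01 FPKM in KO and 27.5 ± 0.479 in WT, and Slc30a4, which moves zinc into vesicles, 12.2 ± 1.13 in KO and 16.0 ± 1.21 in WT (mean ± SD, n = 3 each). Slc30a3, the zinc transporter of synaptic vesicles, was at 9.06, 9.45 and 4.47 FPKM in KO and at 1.96, 1.97 and 3.86 in WT. Mt4 was listed at 0 in every library.

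Of 18 haem and iron genes, 5 had higher and 1 lower values in KO with no overlap, and the median was 0.19. Fth1, the ferritin heavy chain, was at 956, 848 and 765 FPKM in KO and at 501, 524 and 245 in WT (log2 fold change 1.09, adjusted p = 0.0854, limma). Ferritin has pseudogenes that could share its reads. Transferrin (Trf), which oligodendrocytes make in brain, was at 600, 626 and 358 FPKM in KO and at 302, 301 and 268 in WT. Ceruloplasmin (Cp) was at 9.44, 9.67 and 10.96 FPKM in KO and at 6.23, 6.59 and 6.06 in WT. Cd163, the haemoglobin scavenger receptor of macrophages, averaged 1.76 ± 0.392 FPKM in KO and 0.64 ± 0.292 in WT (mean ± SD, n = 3 each).

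Only 3 of 13 NADPH oxidase genes had a mean of at least 1 FPKM, and 2 of them had no overlap and higher values in KO. Cyba, a membrane subunit of the phagocyte oxidase, was at 6.69, 6.51 and 8.62 FPKM in KO and at 4.42, 3.48 and 2.64 in WT. Ncf1, a cytosolic subunit, averaged 2.58 ± 0.161 FPKM in KO and 1.09 ± 0.312 in WT (mean ± SD, n = 3 each). Both are genes of phagocytes, whose markers had higher sums in KO as given for Hmox1, and their part was not tested.

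Genes induced by glucocorticoids, the other textbook inducer of Mt1 and Mt2, had 1 higher and 1 lower of 13 with no overlap, and a median of 0.088. Plin4 was at 6.72, 7.25 and 10.6 FPKM in KO and at 2.08, 2.17 and 5.72 in WT, highest in replicate 3 of each genotype. Klf9 was at 44.5, 41.2 and 55.6 FPKM in KO and at 67.7, 64.9 and 78.9 in WT, also highest in replicate 3 of each genotype. Sgk1 was at 34.8, 37.3 and 53.5 FPKM in KO and at 28.2, 26.6 and 70.1 in WT. It had that order too, as did Per1, Zbtb16, Nfkbia, Cdkn1a and Sult1a1. Fkbp5, Tsc22d3, Pdk4, Ddit4 and Errfi1 were highest in replicate 3 in WT but not in KO. Tsc22d3 was at 95.1, 96.0 and 70.6 FPKM in KO and at 65.8, 63.9 and 127 in WT. The share of all genes that were highest in replicate 3 of each genotype is not given. Replicate 3 also lay apart from replicates 1 and 2 in both genotypes, so nothing is read from that order. The part of glucocorticoids in the Mt1 and Mt2 values was not tested. Heat shock genes had 3 higher and 0 lower of 13, with a median of 0.23. Cryab averaged 145 ± 25.1 FPKM in KO and 78.1 ± 22 in WT, and Hspb1 8.23 ± 1.94 in KO and 5.13 ± 0.916 in WT (mean ± SD, n = 3 each).

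**Figure D4:**
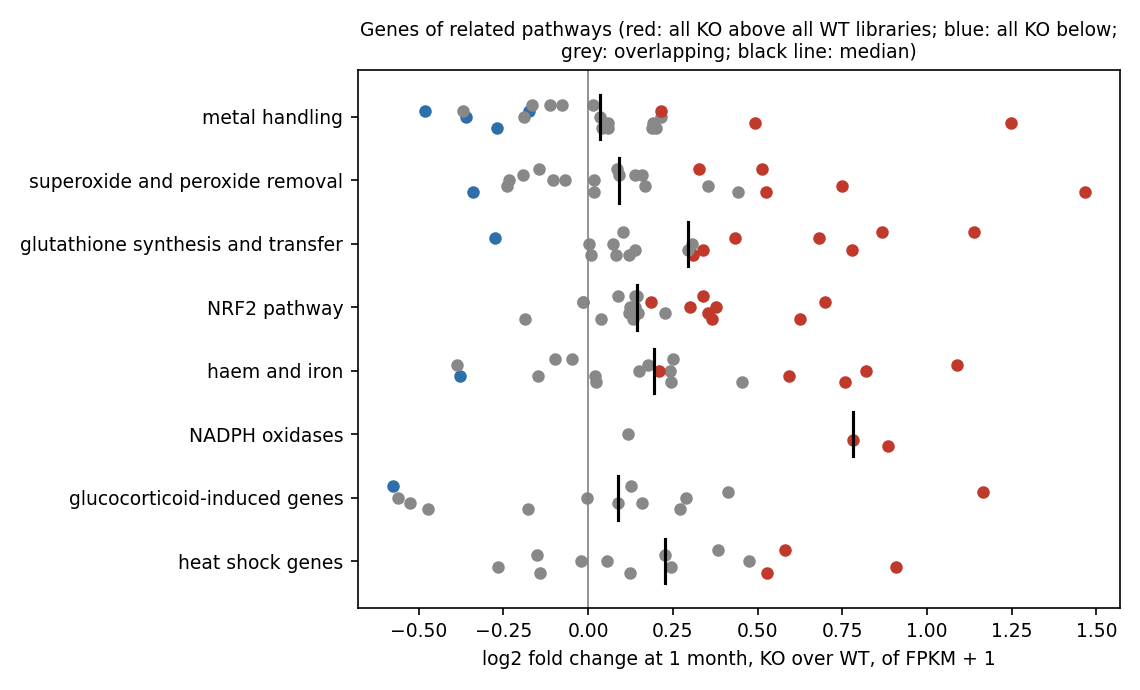
Log2 fold change at 1 month, KO over WT, of the tested genes of the 8 lists without the 9 genes themselves. A point is a gene, a gene of 2 lists appears in both, and the line is the list's median. The glutathione list has 7 red points and 1 blue, and the metal handling list has 3 red and 4 blue.

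At 4 months there was 1 library of each genotype, so differences have no replicate check and no p-value, and the library labelled KO has the low neuron markers and high forebrain genes described. The comparison of genotypes and that of ages share these libraries. Mt1 was at 196 FPKM in the library labelled KO and at 105 in WT, Mt3 at 154 in the library labelled KO and 77.4 in WT, and Gpx1 at 30.3 in the library labelled KO and 17.8 in WT. Sod1 was at 33.1 FPKM in the library labelled KO and 23.0 in WT, and Sod2 at 48.6 in the library labelled KO and 39.3 in WT. These 5 genes were the higher ones in the library labelled KO. Mt2 was at 38.2 FPKM in the library labelled KO and 47.4 in WT, and Nqo1 at 2.25 in the library labelled KO and 4.27 in WT. Hmox1 was at 1.65 FPKM in the library labelled KO and 2.68 in WT, and Cat at 13.9 in the library labelled KO and 18.5 in WT. The other 4 were lower there. In 0 of the 9 genes was the difference of log2(FPKM + 1) at least 1 either way, where 9.57% of 14791 genes were higher and 11.2% lower by that much. The largest was 0.99 for Mt3. The median was 0.30 over the 9 genes and -0.005 over all genes on the log2 scale. Hmox1 and Cat, with all KO libraries above all WT libraries at 1 month, were lower in the library labelled KO here, as were 44.8% of the 2127 genes with that order at 1 month that could be compared at both ages.

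The level of Mt1 at 4 months was among the values on which the set was selected. In the library labelled KO it was at 37.3% of the mean of the 3 KO libraries of 1 month, and in the WT library at 22.1% of the WT mean. Mt2, its neighbour, was at 32% in KO and 33.1% in WT, and Mt3 at 81.5% in KO and 48.6% in WT. Both 4-month libraries lay below every library of 1 month of their genotype for all 3 metallothioneins. Summed over the 3 genes, the level was 388 FPKM in the library labelled KO and 230 in WT at 4 months, against 707 to 990 in the libraries of 1 month.

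The enzymes varied in their 4-month values. In the library labelled KO, Hmox1 was at 33.6% of the KO mean, Cat at 44.7%, Nqo1 at 55.9%, Sod1 at 64.1%, Gpx1 at 64.4% and Sod2 at 96.9%. In WT, where cerebellar neuron markers were present, Gpx1 was at 51.4% of the 1-month mean, Sod1 at 64.1%, Sod2 at 86.6% and Cat at 83.5%, each below all 3 libraries of 1 month. Hmox1 was at 127% and above them, and Nqo1 at 122% and inside their range. On the log2 scale 4 of the 9 genes in KO, Mt1, Mt2, Hmox1 and Cat, and 2 in WT, Mt1 and Mt2, were lower by at least 1. Over all genes 7.56% in KO and 4.03% in WT were lower by that much. Because Mt1 was selected on this contrast, nothing is read from these counts. Of the 9 genes 0 were higher by at least 1, where 5.83% of all genes in KO and 2.58% in WT were. A 4-month value below all 3 libraries of 1 month was found for 8 of the 9 genes in KO and 7 in WT, where 42.4% of all genes in KO and 47.4% in WT had one. Mt1 is counted there too, so nothing is read from those counts either. Astrocyte and Bergmann glia markers summed to 1331 FPKM in the library labelled KO and 1825 in WT at 4 months, and their part was not tested. Brainstem markers summed to 81.2 FPKM in the WT library of 4 months, against 16.2, 17.2 and 56.2 in WT at 1 month. Granule neuron markers summed to 1027 FPKM in that library, against 1659 to 1713, and Purkinje cell markers to 1596, against 2362 to 2939. The part of these cells in the WT values was not tested either.

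**Figure D5:**
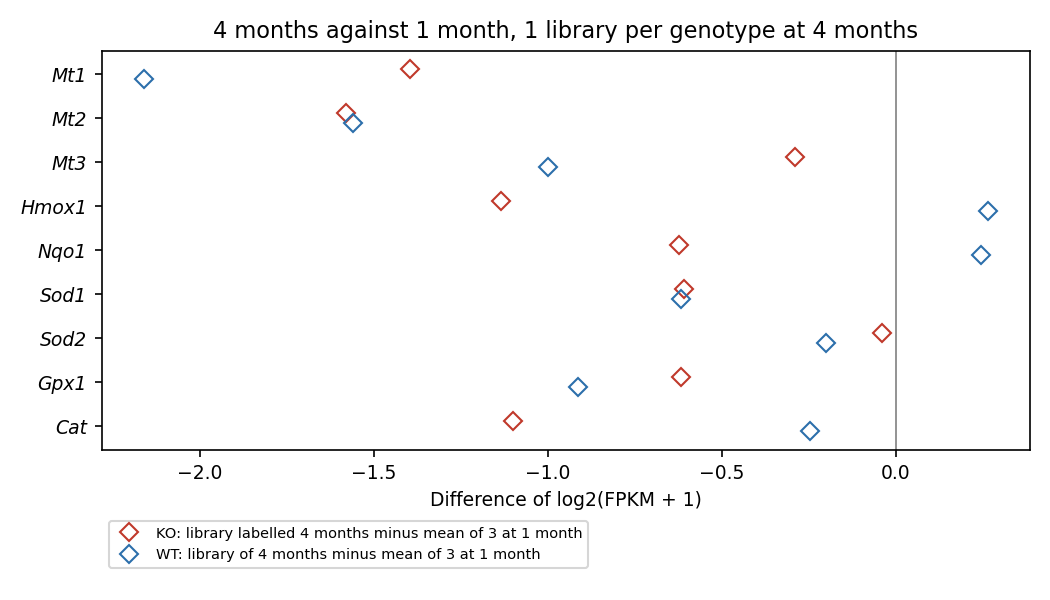
Difference of log2(FPKM + 1) between the single 4-month library and the mean of 3 libraries of 1 month, for each gene, with KO in red and WT in blue. Mt1 has -1.40 in KO and -2.16 in WT and Mt2 has -1.58 in KO and -1.56 in WT, while Hmox1 has -1.14 in KO and 0.26 in WT.

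Genes with the most similar profile were ranked by the root mean square difference of log2(FPKM + 1), each gene centred on its own mean over the 8 libraries, among 10242 genes of at least 5 FPKM. Mt2 was the seventh nearest of them to Mt1 with 0.36, while Mt3 stood at rank 648 with 0.60. Nearest to Mt1 were mKIAA0340 (0.31), the lysosomal gene Lamp1 (0.32), the copper chaperone Atox1 (0.33), Krtcap2 (0.33) and Ndufv3 (0.33). Nearest to Mt2 were Lrrn1 (0.29), H3f3a (0.30), Dbi (0.30), Prox1 (0.30) and PLC-epsilon (0.31). Mt3 had closer neighbours, Ndufaf1 (0.09), Scnm1 (0.10), Nenf (0.10), Denr (0.11) and Ddx24 (0.11), and among the 9 genes Gpx1 was nearest to it with 0.18 at rank 94. The measure is not scaled by a gene's own spread. That SD on the log2 scale was 0.44 for Mt3, 0.82 for Mt1 and 0.73 for Mt2, so the distances of these genes are not on equal terms. Nearest to Hmox1 were the complement inhibitor Serping1 (0.18), Ifi27l1 (0.18), Bgn (0.21), 6330406I15Rik (0.22) and Pcolce (0.23). All 8 libraries enter these values, including those that stand apart from their labels. The levels of Mt1 in the older libraries, on which the set was partly selected, enter them too. A gene can therefore rank near Mt1 by sharing its lower level at the later age, and nothing is read from the ranks of genes near Mt1.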

How the data were processed

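RNA was measured in 8 libraries labelled cerebellum, and the authors deposited 1 table of FPKM values with 1 column per library. TopHat2 2.1.0, Bowtie 1.1.2, Cuffdiff and build mm9 are named per the submitters' processing notes. The sources used here do not give annotation, strand, filters or scaling, so overlapping, antisense or near-identical genes cannot be told apart. All columns were mapped by title, and 1 row of repeated headings was removed. FPKM are not counts and absolute depth is unknown, so no counting intervals are given. The totals ran from 381845 to 630615 FPKM and symbols of small RNAs held 11% to 48.2% of them.

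KO and WT at 1 month were compared by limma 3.58.1 (R 4.3.3) on log2(FPKM + 1), over the 14847 genes averaging 1 FPKM or more, with Benjamini-Hochberg adjustment and a threshold of 0.05. The scale understates changes of low genes. The procedure was checked on simulated data. No test was made with the 4-month libraries. The 9 genes, the lists and the tests were chosen with earlier results of these data known. Named genes beyond the 9 are up to 4 per list with the smallest p and the 5 nearest profiles of Mt1, Mt2, Mt3 and Hmox1. Hsp90aa1, Bag3 and Noxo1 met that rule and are not described. Outside the rule, the glucocorticoid-induced genes are named in full for their replicate 3 values, and Mt4 and some cell type markers are named too. Alternatives were other pseudocounts, filters, scalings, array weights, a replicate block and libraries left out. Promoter windows are RefSeq, GRCm38.p6.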

Additional observations from a re-analysis of the deposited data

Results flagged for a closer look

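Hmox1 and Cat had KO values above all WT values at 1 month and lower values in the library labelled KO than in the WT library at 4 months. The difference of log2(FPKM + 1), KO minus WT, was -0.48 for Hmox1 and -0.38 for Cat at 4 months. The difference between the ages was not tested. Among the 2127 genes with all KO libraries above all WT libraries at 1 month that could be compared at both ages, 44.8% were lower in the library labelled KO at 4 months, and that library has low sums of cerebellar neuron markers, as given above.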

How the results depend on the processing

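No gene of the 9 was called with pseudocounts of 0.1 or 5, with no filter or a filter at 5 FPKM (which leaves out Hmox1 and Nqo1), or with libraries shifted to 1 median or quantile normalized. Leaving out 1 library in turn gave 0 to 4 calls and 4 to 6 genes without overlap. The highest of both counts came without the library labelled KO replicate 3. There 34.1% of all genes were called, and 27.8% had both KO libraries above all WT libraries. The 6 genes without overlap there were Mt2, with lower values in KO, and Hmox1, Sod1, Sod2, Gpx1 and Cat, with higher values. The share of all genes with the lower order in that fit is not given, nor are shares for the other libraries left out. Nothing is read from these counts of genes without overlap. Array weights called 5 genes, Mt2 lower and Hmox1, Sod1, Gpx1 and Cat higher, where 54.5% of all genes were called. Without replicate 3 of both genotypes the same 5 were called, where 47.5% of all genes were called. In that fit 7 genes did not overlap, and the share of all genes without overlap is not given, so nothing is read from that count. Mt1 turned to -0.067 under quantile normalization, and over the libraries left out in turn it ran from -0.055, without the library labelled KO replicate 3, to 0.22. In KO, 2 genes instead of 4 were lower by at least 1 with age at a pseudocount of 5. List medians moved to 0.12 (metal handling), 0.23 (NRF2), 0.28 (haem and iron) and 0.87 (NADPH oxidases) with libraries shifted to 1 median, and to -0.031 (metal handling) and 0.88 (NADPH oxidases, 1 gene) with the filter at 5 FPKM. Leaving out replicate 3 of either genotype gave medians of 0.074 to 0.23 for superoxide and peroxide removal, 0.11 to 0.29 for glutathione genes, 0.05 to 0.33 for glucocorticoid-induced genes and 0.098 to 0.33 for heat shock genes. The cause was not tested. With the replicate number as a block 0 of the 9 genes were called. Same-numbered libraries deviated together with correlations of 0.19, 0.0017 and -0.0065, so the numbers were not taken as pairs. The block changed no call of these genes. Depth is unknown, and Hmox1 and Nqo1, under 7 FPKM, were the lowest of the 9 genes.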

Other observations

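In the WT cerebellum some related genes differed between 4 months and 1 month by more than the 9 genes' median of -0.62 on the log2 scale, on 1 library and with no test; they were picked after their values were seen. Plin4, a lipid droplet gene induced by glucocorticoids, was at 13.2 FPKM at 4 months, against 2.08, 2.17 and 5.72 at 1 month. Gpx3 was at 5.64 FPKM, against 2.20, 2.13 and 2.92. Cryab, a small heat shock protein, was at 32.8 FPKM, against 95.2, 85.8 and 53.2, and the copper chaperone Ccs at 5.94, against 11.1, 9.71 and 12.4. The copper chaperone Atox1 was at 16.4 FPKM in the WT library of 4 months, against 64.0, 66.8 and 50.7 at 1 month, and Mtf1 at 6.05, against 10.1, 10.9 and 9.98. Other listed genes also differed by more than that median, among them Gstm1, Hmox2 and Zbtb16. The share of all genes that did so is not given, so nothing is read from these genes. Marker sums of the WT library of 4 months differed from those of 1 month as well, as given above, and their part was not tested.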
